A study of Mus musculus with 6 samples.

Results

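The proteasome genes described here are the 50 genes, of 47643 in the deposited table, whose symbol starts with Psma, Psmb, Psmc, Psmd, Psme, Psmf or Psmg followed by a number, with 4 pseudogene names left out. The rule for membership uses the symbol and no measured value. RNA sequencing of polyadenylated RNA was done on thymic NKT1 cells of wild-type BALB/c mice. NKT1 cells are the T-bet-expressing subset of invariant natural killer T (iNKT) cells, T cells with a nearly fixed receptor for lipids on CD1d, and both groups were sorted by flow cytometry. The first group holds 3 libraries of CD4-positive NKT1 cells and the second 3 libraries of CD4-negative NKT1 cells. All groups share the strain, tissue and genotype and differ by the CD4 coreceptor used in the sort.

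The proteasome degrades proteins tagged with ubiquitin and makes most of the peptides shown on MHC class I. Its barrel, the 20S core particle, stacks rings of alpha subunits (Psma genes) around rings of beta subunits (Psmb genes), and a 19S regulatory particle of ATPases (Psmc) and other subunits (Psmd) unfolds the substrate. The standard catalytic subunits beta1, beta2 and beta5, encoded by Psmb6, Psmb7 and Psmb5, can be exchanged for the immunoproteasome subunits encoded by Psmb9, Psmb10 and Psmb8, which lymphocytes express constitutively and interferon gamma induces elsewhere. A further exchange subunit, Psmb11, forms the thymoproteasome of cortical thymic epithelium.

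Total counts were 40480463 to 53145848 per library, and 1 count was worth 0.0188 to 0.0247 CPM (counts relative to the library total). Levels below are CPM also scaled by TMM. The CD4-negative replicate 3 library stood apart on the first principal component, with a score of -57.3 where the others had -15.2 to 25.8. It also had the lowest total (40480463) and the fewest genes with a count, 13787 against 15293 to 16267 in the others. Mitochondrial transcripts made up 1.35% of counts in CD4-positive replicate 1 and 1.33% in CD4-negative replicate 3, against 3.51% to 5.19% in the other libraries. Both replicate 1 libraries held Y-linked transcripts, 466 counts for CD4-positive and 523 for CD4-negative cells, and no other library had more than 1. The replicate 1 libraries thus held cells of male mice, and the libraries of each group differ in sex. Cd4, the sort marker, averaged 453 ± 53.7 CPM over the CD4-positive libraries and 22.7 ± 16.2 CPM over the CD4-negative ones (SD, n = 3 each), with a log2 fold change of 4.32 (edgeR adjusted p = 0.0330). Its log2 fold change was 3.99 to 5.08 with a library left out in turn, where the adjusted p ran from 0.0030 to 0.21 and passed 0.05 only without CD4-negative replicate 3. All 8 T and iNKT cell markers passed the filter on low counts. Among them Zbtb16, Trac and Cd4 were higher in every CD4-positive than in any CD4-negative library, as were 4.84% of all tested genes. The log2 fold change was 0.78 for Zbtb16 (95% interval 0.15 to 1.41, unadjusted p = 0.022, edgeR adjusted p = 0.80) and 0.088 for Trac. The 6 markers of immature thymocytes summed to between 25.7 and 138 CPM per CD4-positive library and between 42.5 and 208 CPM per CD4-negative library. The 8 markers of cortical thymic epithelium summed to 53.2 to 89.9 CPM (CD4-positive) and 70.0 to 74.3 CPM (CD4-negative). The 9 of dendritic cells and macrophages summed to 95.1 to 145 CPM (CD4-positive) and 105 to 191 CPM (CD4-negative), and the 5 of erythroid cells to 276 to 367 CPM (CD4-positive) and 283 to 701 CPM (CD4-negative). Most of the epithelial sum was Ly75 and most of the dendritic and macrophage sum Cst3. Within these lists the B cell marker Cd79b and the dendritic cell markers Itgax and Xcr1 were lower in every CD4-positive than in any CD4-negative library (unadjusted p = 0.0025, 0.0067 and 0.0073, edgeR adjusted p = 0.255, 0.455 and 0.472). The 5 B cell markers summed to at most 0.987 CPM per CD4-positive and 2.43 CPM per CD4-negative library, and 2 of them had no count. Foxn1, which defines thymic epithelium, was at most at 0.086 CPM. The part of other cells in the values below was not tested.

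No proteasome gene was called different between CD4-positive and CD4-negative NKT1 cells. Of 50 members 48 passed the filter on low counts, and by edgeR's quasi-likelihood test 0 of the 48 differed at an adjusted p under 0.05, where 0.212% of all 12760 tested genes did. None of the 48 had an unadjusted p under 0.05 (4.44% of all genes did), and DESeq2 and limma-voom also called 0. In none were the 2 groups of libraries free of overlap, where 4.84% of all genes had non-overlapping groups with the CD4-positive libraries higher and 4.57% with them lower. Log2 fold changes, CD4-positive over CD4-negative, ran from -0.32 (Psmd9) to 0.18 (Psmg2), with a median of -0.079 beside -0.0058 over all tested genes. The 95% interval of the fold change lay within 2-fold either way for 45 of the 48 members, and passed that bound for Psmc5, Psmd13 and Psmb4. Differences smaller than these intervals were not detectable with this number of libraries, and in bulk libraries fewer cells that express a gene cannot be told apart from less RNA per cell.

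**Figure D1:**
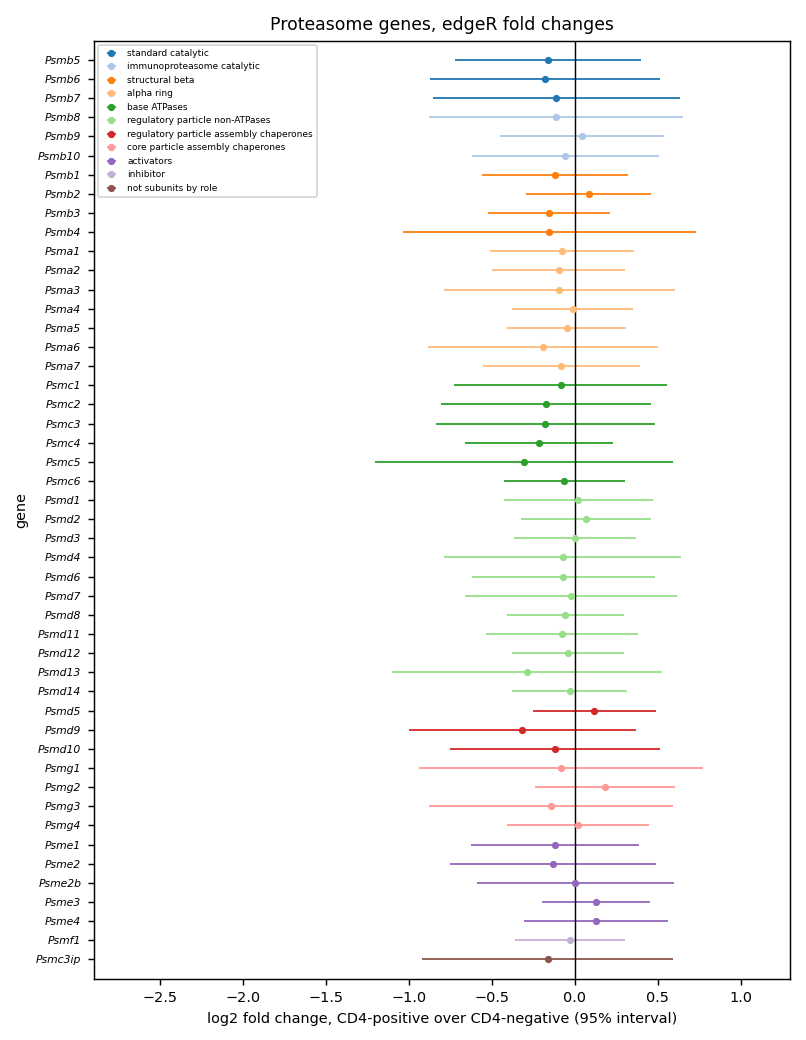
Log2 fold change of the 48 tested proteasome genes, CD4-positive over CD4-negative, on the x axis, with 1 row per gene and colour by role. Points are edgeR estimates and bars are 95% intervals (3 libraries per group); every interval includes 0, and 45 of the 48 lie between -1 and 1.

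Both immunoproteasome and standard catalytic subunits were expressed in every library. Psmb8 encodes beta5i, the chymotrypsin-like subunit of the immunoproteasome. Its level was 527, 342 and 433 CPM in CD4-positive replicates 1, 2 and 3, against 359, 334 and 715 CPM in CD4-negative replicates 1, 2 and 3. The highest library was CD4-negative replicate 3 and the lowest CD4-negative replicate 2, so the CD4-positive values lay inside the CD4-negative range. The log2 fold change was -0.11 (SE 0.33, 95% interval -0.88 to 0.65, edgeR adjusted p = 0.99999).

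Psmb9, which encodes beta1i, stood at 78.9, 66.9 and 83.4 CPM in CD4-positive libraries, against 66.3, 60.4 and 95.9 CPM in CD4-negative libraries, a log2 fold change of 0.041 (SE 0.21, interval -0.45 to 0.54). CD4-negative replicate 3 was again the highest, and all 3 CD4-positive libraries lay above CD4-negative replicates 1 and 2. Psmb10, which encodes beta2i, stood at 184, 119 and 159 CPM in CD4-positive libraries, against 133, 140 and 207 CPM in CD4-negative libraries, a log2 fold change of -0.057 (SE 0.24, interval -0.62 to 0.50). The groups overlapped, with CD4-positive replicate 2 the lowest.

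Psmb5 encodes beta5, the chymotrypsin-like standard subunit. It stood at 54.4, 38.6 and 50.5 CPM in CD4-positive libraries, against 44.1, 45.4 and 71.3 CPM in CD4-negative libraries, a log2 fold change of -0.16 (SE 0.24, interval -0.73 to 0.40). Psmb6, the caspase-like beta1, was at 162, 101 and 123 CPM in CD4-positive libraries, against 116, 112 and 209 CPM in CD4-negative libraries, a log2 fold change of -0.18 (SE 0.30, interval -0.87 to 0.51). Psmb7, the trypsin-like beta2, was at 101, 63.5 and 81.5 CPM in CD4-positive libraries, against 67.9, 64.8 and 133 CPM in CD4-negative libraries, a log2 fold change of -0.11 (SE 0.32, interval -0.86 to 0.63). In each of these genes the highest library was CD4-negative replicate 3 and the next CD4-positive replicate 1, and the groups overlapped. Reads of Psmb5, Psmb7 and Psmb9 were fractional in 100% of libraries and those of Psmb8 in 83.3%, so part of them was shared with other genes.

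**Figure D2:**
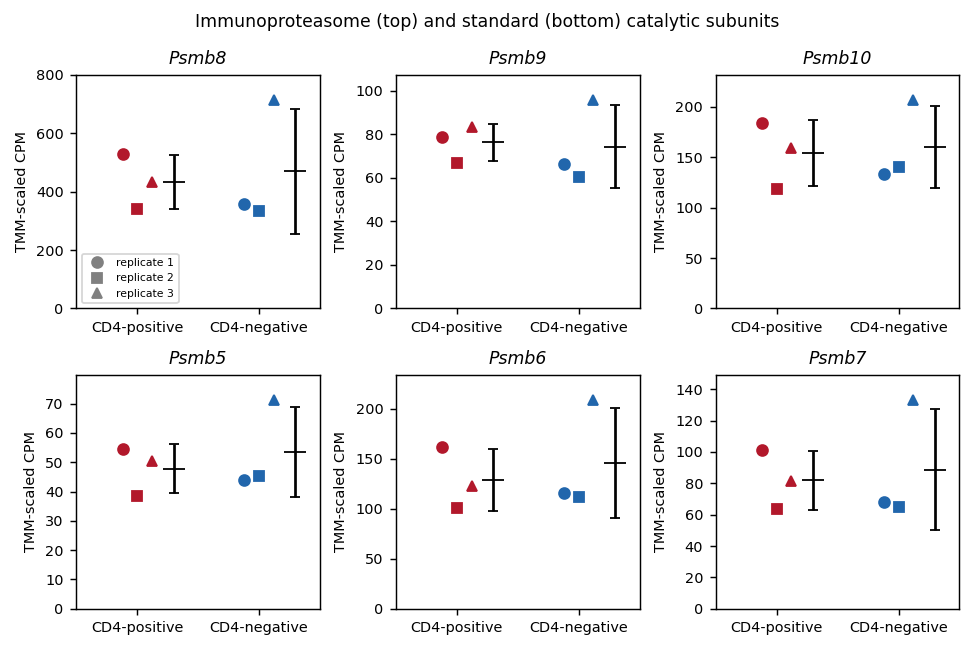
TMM-scaled CPM (y axis, starting at 0) of the immunoproteasome subunits (top row) and standard subunits (bottom row) in CD4-positive and CD4-negative NKT1 libraries. Symbols are the replicates and the bar is the mean ± SD of 3 libraries; CD4-negative replicate 3 is the highest library in all 6 panels, for example 715 CPM of Psmb8 where the other libraries have 334 to 527.

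Psmb9 and Psmb8 lie in the MHC region of chromosome 17, on either side of the peptide transporter gene Tap1 (GRCm38). Psmb9 spans 34181987 to 34187764 on the minus strand, Tap1 34187553 to 34197225 and Psmb8 34197721 to 34201454 on the plus strand, followed by Tap2 at 34203527 to 34216321. Psmb9 and Tap1 thus overlap at their starts on opposite strands, and whether counting used strand is not given in the sources used here, so reads from the overlap may not be told apart. Psmb10 lies on chromosome 8 (105935735 to 105938444), Psmb5 on chromosome 14 (54614119 to 54618022), Psmb6 on chromosome 11 (70525367 to 70527858) and Psmb7 on chromosome 2 (38588036 to 38644087).

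Set against each other within a library, the summed immunoproteasome and the summed standard subunits kept nearly the same proportion while their levels moved up and down. Psmb8 was the largest part of the first sum in every library, at 334 to 715 CPM. The single exchange pairs, given below, moved more between libraries than the ratio of sums. The sum of Psmb8, Psmb9 and Psmb10 was 790, 528 and 675 CPM in CD4-positive replicates 1, 2 and 3, against 558, 534 and 1018 CPM in CD4-negative replicates 1, 2 and 3. The sum of Psmb5, Psmb6 and Psmb7 was 317, 203 and 255 CPM in CD4-positive libraries, against 228, 222 and 413 CPM in CD4-negative libraries. Both sums were highest in CD4-negative replicate 3 and next highest in CD4-positive replicate 1.

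The ratio of these sums, with counts divided by the length of all annotated exons of each gene, was 1.61, 1.64 and 1.68 in CD4-positive libraries, against 1.55, 1.53 and 1.56 in CD4-negative libraries. The mean ratios were 1.64 ± 0.030 in CD4-positive and 1.55 ± 0.016 in CD4-negative libraries (SD, n = 3 each), and the difference of the log2 ratios was 0.088. All CD4-positive libraries lay above all CD4-negative libraries in this ratio with exon length, and also with the length of the principal coding transcript (CD4-positive 1.49 to 1.60, CD4-negative 1.45 to 1.47), with the coding length (CD4-positive 2.35 to 2.53, CD4-negative 2.29 to 2.32) and with counts not divided by length (CD4-positive 2.49 to 2.65, CD4-negative 2.41 to 2.46). With the geometric mean of the subunits in place of their sum the groups overlapped, at 1.33 to 1.46 in CD4-positive and 1.25 to 1.35 in CD4-negative libraries. The ratio is a score over chosen genes, so it has no p-value here. The log2 difference was 0.080 to 0.088 over the 4 versions with sums, which reuse the same counts. Of single tested genes 4.84% had all CD4-positive libraries higher in level. No such share was computed for ratios of sums, so this one is no background for the ratio. In each exchange pair alone the groups overlapped. With all exons Psmb8 over Psmb5 was 2.28 to 2.58 (CD4-positive) and 1.95 to 2.67 (CD4-negative). Psmb9 over Psmb6 was 0.249 to 0.347 and 0.235 to 0.293, and Psmb10 over Psmb7 3.65 to 3.91 and 3.12 to 4.34, in the same order.

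The exchange pairs differed more among themselves than between the groups. Psmb8 exceeded Psmb5 per length by 2.40 ± 0.15-fold in CD4-positive and 2.26 ± 0.37-fold in CD4-negative libraries with the length of all exons. With the principal transcript length this ratio was 4.99 ± 0.32 for CD4-positive and 4.70 ± 0.76 for CD4-negative cells, and with the coding length 8.64 ± 0.55 for CD4-positive and 8.13 ± 1.32 for CD4-negative cells, so its size depends on the length used while its direction does not. Psmb10 exceeded Psmb7 by 3.77 ± 0.13-fold in CD4-positive and 3.79 ± 0.62-fold in CD4-negative libraries with all exons, and by 1.66 ± 0.058-fold (CD4-positive) and 1.67 ± 0.27-fold (CD4-negative) with the principal transcript. Psmb9 was below Psmb6 in every library and with each length, at a ratio of 0.31 ± 0.055 in CD4-positive and 0.27 ± 0.030 in CD4-negative libraries with all exons, and of 0.66 ± 0.12 (CD4-positive) and 0.57 ± 0.063 (CD4-negative) with the coding length. The Psmb9 over Psmb6 ratio was lowest in CD4-negative replicate 3 (0.23) and in CD4-positive replicate 1 (0.25) of the 6 libraries.

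**Figure D3:**
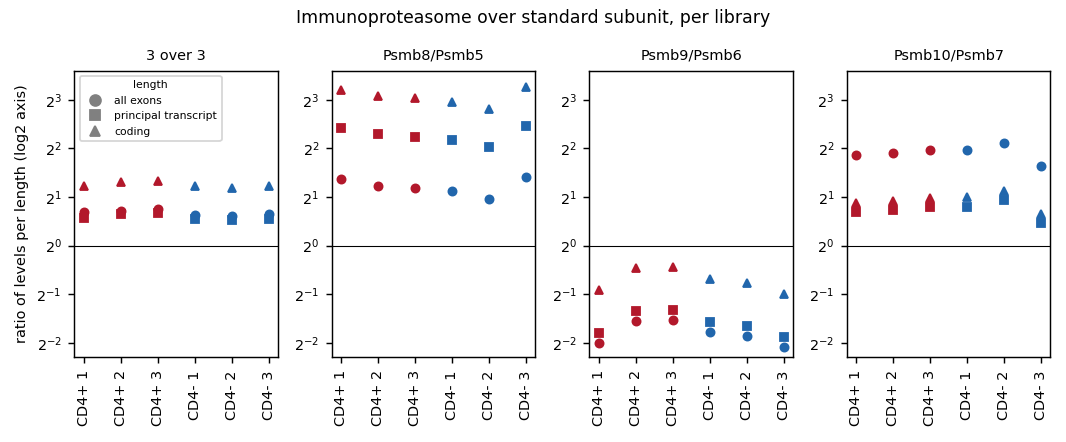
Ratio of levels per length (log2 axis) of immunoproteasome over standard subunits in each library, CD4-positive in red and CD4-negative in blue. Symbols mark the gene length used; the line is a ratio of 1. Psmb8/Psmb5 and Psmb10/Psmb7 lie above 1 and Psmb9/Psmb6 below 1 in all 6 libraries.

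The thymoproteasome subunit Psmb11 was close to absent. It had 11, 2 and 0 counts in CD4-positive replicates 1, 2 and 3 and none in CD4-negative libraries, where 0 counts leave room for a level of 3 counts (0.0564 to 0.0741 CPM), by counting error only. The alpha subunit of the testis, Psma8, had 0, 0 and 3 counts in CD4-positive and 1, 0 and 0 counts in CD4-negative libraries. These 2 genes are the members that did not pass the filter.

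Promoter windows of RefSeq (GRCm38.p6, 250 bases before to 50 after the annotated start) were at hand for 42 of the 50 members, in 45 windows. They are shown for the beta5 exchange pair in full, and in part for Psmb6 and Psme1, because these genes hold a match to a motif known from the control of proteasome or interferon-responsive genes. Capitals mark the match, and distances are from the RefSeq start. For Psmb8 and Psme1 the stretch shown lies inside the gene span given in this report, which begins at 34197721 and 55578123. Psmb8 (chr17:34197945-34198244, plus strand) holds TTCNNNGAA, the gamma-activated site of interferon-responsive genes, 97 bases before the start. Psmb5 (chr14:54617946-54618245, minus strand) and Psmb6 (chr11:70525303-70525402, plus strand) hold TGACNNNGC, the core of the antioxidant response element bound by the Nrf factors, 47 and 9 bases before it. Psme1 (chr14:55578444-55578543, plus strand) holds the interferon-stimulated response element, bound by interferon regulatory factors, on the opposite strand from base 10 after the start.
Psmb8: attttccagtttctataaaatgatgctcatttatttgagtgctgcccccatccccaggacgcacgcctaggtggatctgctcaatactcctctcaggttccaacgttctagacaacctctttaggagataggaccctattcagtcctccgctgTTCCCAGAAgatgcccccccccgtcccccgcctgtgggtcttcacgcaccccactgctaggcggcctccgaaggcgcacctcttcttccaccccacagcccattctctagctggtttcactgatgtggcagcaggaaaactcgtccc
Psmb5: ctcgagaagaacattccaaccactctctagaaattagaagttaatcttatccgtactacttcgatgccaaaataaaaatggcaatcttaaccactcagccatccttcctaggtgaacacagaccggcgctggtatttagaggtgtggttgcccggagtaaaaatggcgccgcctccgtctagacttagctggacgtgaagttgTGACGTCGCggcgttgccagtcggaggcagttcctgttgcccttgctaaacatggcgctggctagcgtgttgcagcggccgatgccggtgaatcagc
Psmb6: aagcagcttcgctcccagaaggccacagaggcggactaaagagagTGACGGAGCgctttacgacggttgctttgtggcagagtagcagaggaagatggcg
Psme1: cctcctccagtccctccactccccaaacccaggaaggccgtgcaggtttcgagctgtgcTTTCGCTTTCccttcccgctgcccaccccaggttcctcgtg

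Searched on both strands, TGACNNNGC occurred in 6 of the 42 members (Psmb5, Psmb6, Psmc6, Psmd9, Psmd12 and Psme4) and in 12.4% of all 32851 windows. TTCNNNGAA, which reads the same on both strands, occurred in 3 members (Psmb8, Psmd2 and Psmg1) and in 8.30% of all windows. The interferon-stimulated response element, in the form searched here, occurred in 5 members (Psmb3, Psmd4, Psmd9, Psme1 and Psmg4) and in 3.44% of all windows. These letters are a description of the windows and no sign of binding in these cells.

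The 7 tested alpha subunits, which form the outer rings and gate the barrel, all had a log2 fold change below 0, between -0.19 (Psma6) and -0.012 (Psma4), with a median of -0.081. Psma6, the one with the smallest p, was at 146, 102 and 109 CPM in CD4-positive libraries, against 106, 103 and 200 CPM in CD4-negative libraries (SE 0.30, interval -0.89 to 0.50). Without CD4-negative replicate 3 its log2 fold change was 0.20. The structural beta subunits Psmb1 to Psmb4, which have no active site, spread wider. Psmb3 was at 98.7, 85.4 and 101 CPM in CD4-positive libraries, against 101, 96.3 and 120 CPM in CD4-negative libraries, a log2 fold change of -0.15 (SE 0.16, interval -0.52 to 0.21). Psmb4 was at 166, 82.9 and 112 CPM in CD4-positive libraries, against 99.4, 93.4 and 209 CPM in CD4-negative libraries, a 2.52-fold range over the 6 libraries. Psmb2 was at 80.0, 88.9 and 104 CPM in CD4-positive libraries, against 86.9, 92.7 and 78.3 CPM in CD4-negative libraries, with CD4-negative replicate 3 the lowest.

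Per length, the 11 alpha and structural beta genes lay within 3.79-fold of each other with all exons (median level 111 TPM, counts per length scaled to a fixed total here), 3.56-fold with the principal transcript (median 206 TPM) and 2.34-fold with the coding length (median 147 TPM). Each barrel holds the same number of copies of these subunits. Over the 6 libraries Psmb8 averaged 336, 540 and 503 TPM with these 3 lengths and was above the highest of the 11 in each. Psmb5 averaged 143, 111 and 59.5 TPM and Psmb9 52.1, 110 and 107 TPM. Which of the 11 was highest changed with the length, from Psma6 to Psmb3 to Psmb1, and no order among them is drawn.

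In the regulatory particle the 6 ATPases of the base, which thread the substrate into the barrel, all had a log2 fold change below 0, with a median of -0.18. Psmc4, with the smallest p of all members (0.293, edgeR adjusted p = 0.99999), stood at 105, 87.5 and 88.4 CPM in CD4-positive libraries, against 97.2, 94.2 and 135 CPM in CD4-negative libraries, a log2 fold change of -0.22 (SE 0.19, interval -0.66 to 0.23). Without CD4-negative replicate 3 it was -0.026. Psmc5 was at 126, 73.2 and 73.1 CPM in CD4-positive libraries, against 83.7, 74.0 and 180 CPM in CD4-negative libraries, a 2.46-fold range. In all 6 ATPase genes CD4-negative replicate 3 was the highest and CD4-positive replicate 1 the next.

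Of the 11 other subunits of the regulatory particle 3 had a log2 fold change above 0 and 8 below, with a median of -0.040. Psmd2, a scaffold subunit that binds ubiquitin-like domains, averaged 220.5 ± 15.8 CPM over CD4-positive and 211 ± 33.6 CPM over CD4-negative libraries (log2 0.067). Psmd13 was at 124, 74.6 and 99.1 CPM in CD4-positive libraries, against 91.5, 82.9 and 189 CPM in CD4-negative libraries, a log2 fold change of -0.29 (SE 0.35, interval -1.11 to 0.53). The ubiquitin receptor Psmd4 was at 149 ± 39.6 CPM for CD4-positive and 157 ± 59.7 CPM for CD4-negative cells, and the deubiquitinase of the lid, Psmd14, at 89.6 ± 3.33 CPM for CD4-positive and 91.6 ± 10.3 CPM for CD4-negative cells. Psmd13 and Psmd14 are both lid subunits, yet their ranges over the 6 libraries were 2.54-fold and 1.22-fold.

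Per length the 7 assembly factors all lay below the lowest of the alpha and structural beta genes, with each length used. Psmd9, which escorts base ATPases during assembly, was at 31.2, 21.7 and 19.6 CPM in CD4-positive libraries, against 22.9, 25.1 and 42.2 CPM in CD4-negative libraries, a log2 fold change of -0.32 (SE 0.29, interval -0.998 to 0.37). Without CD4-negative replicate 3 its log2 fold change was 0.012. The remaining chaperones of the base, Psmd5 and Psmd10, had log2 fold changes of 0.12 and -0.12. Psmg2, which with Psmg1 guides alpha ring assembly, was at 22.3, 21.9 and 20.7 CPM in CD4-positive libraries, against 20.8, 21.2 and 15.1 CPM in CD4-negative libraries, a log2 fold change of 0.18 (SE 0.18, interval -0.24 to 0.60). Its partner Psmg1 had the opposite sign (log2 -0.085) and the other pair, Psmg3 and Psmg4, log2 fold changes of -0.14 and 0.021.

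The interferon-inducible activator PA28, made of Psme1 and Psme2, had its first subunit gene above the other activator genes per length (Psme1 at 408, 629 and 444 TPM with exon, principal transcript and coding length). Psme1 stood at 402, 304 and 316 CPM in CD4-positive libraries, against 336, 304 and 471 CPM in CD4-negative libraries, a log2 fold change of -0.12 (SE 0.22, interval -0.63 to 0.39). Psme2 stood at 221, 144 and 171 CPM in CD4-positive libraries, against 168, 152 and 268 CPM in CD4-negative libraries, a log2 fold change of -0.13 (SE 0.27, interval -0.75 to 0.49). The groups overlapped in both, with CD4-negative replicate 3 the highest. The 2 genes are neighbours on chromosome 14 (55578123 to 55581529 and 55587441 to 55591113, opposite strands).

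Psme2 shares reads with its near-copy Psme2b on chromosome 11 (48945354 to 48946190). The estimated counts of each were fractional in 100% of libraries, while their sum was a whole number in each (8990 to 11798), at a tolerance of 1e-06 counts. Psme2b took 8.90%, 16.7% and 20.1% of that sum in CD4-positive libraries and 15.8%, 17.6% and 9.86% in CD4-negative libraries, so the split between them is uncertain. The share was lowest in the 2 libraries in which Psme2 was highest.

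Psme3, the nuclear activator PA28 gamma, was at 237, 211 and 241 CPM in CD4-positive libraries, against 210, 212 and 209 CPM in CD4-negative libraries, a log2 fold change of 0.13 (SE 0.14, interval -0.20 to 0.46). CD4-positive replicates 1 and 3 lay above all CD4-negative libraries and replicate 2 among them. Psme4, the large activator PA200, was at 66.2, 89.5 and 79.0 CPM in CD4-positive libraries, against 74.4, 81.2 and 59.7 CPM in CD4-negative libraries, a log2 fold change of 0.12. The inhibitor PI31, encoded by Psmf1, was the steadiest member, at 47.7, 44.1 and 44.2 CPM in CD4-positive libraries, against 45.0, 44.0 and 49.6 CPM in CD4-negative libraries, a 1.13-fold range with a log2 fold change of -0.028 (SE 0.14, interval -0.36 to 0.30). Psmc3ip, which matches by name, encodes a meiotic recombination factor and no proteasome subunit. It was at 2.16 ± 0.49 CPM for CD4-positive and 2.42 ± 0.61 CPM for CD4-negative cells (log2 -0.16, SE 0.32).

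Library order was shared by most members and crossed the groups. CD4-negative replicate 3 had the highest level of 38 of the 48 members, where it had the highest of 29.1% of all tested genes. CD4-positive replicate 1 and CD4-negative replicate 3 were the 2 highest libraries for 34 of the 48, where that held for 21.4% of all genes. Proteasome genes together took 0.589%, 0.459% and 0.509% of all counts in CD4-positive replicates 1, 2 and 3, against 0.486%, 0.464% and 0.664% in CD4-negative replicates 1, 2 and 3. The same 2 libraries had the low shares of mitochondrial counts given above, and the part of that difference in the proteasome values was not tested. The members that ran the other way, lowest in these 2 libraries, were Psmd5, Psmb2, Psme4 and Psmc3ip. Of all 12760 tested genes 2851 were lowest in these 2 libraries.

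**Figure D4:**
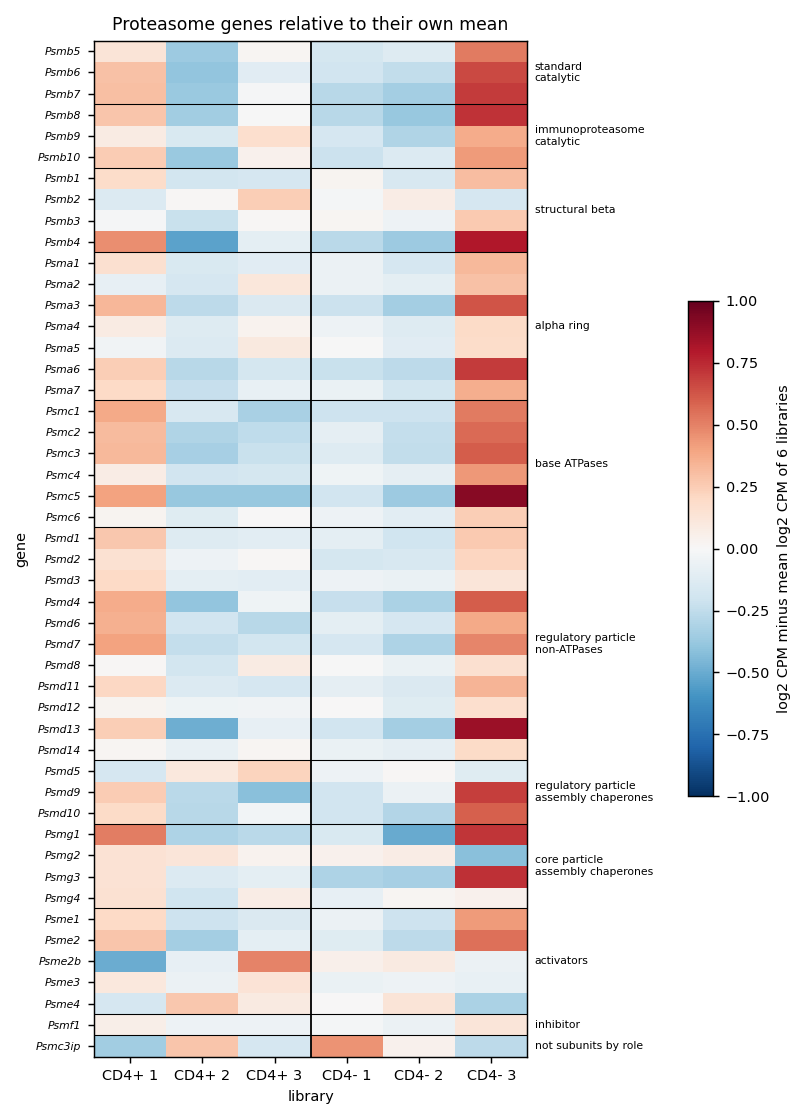
Log2 CPM of each tested proteasome gene minus its own mean over the 6 libraries (colour scale -1 to 1), with genes in rows grouped by role and libraries in columns, CD4-positive left of the line and CD4-negative right of it. CD4-positive replicate 1 and CD4-negative replicate 3 are red in most rows, the 2 highest libraries for 34 of 48 genes.

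The direction of the group difference rested on single libraries. With all 6 libraries 11 of 48 members had a log2 fold change above 0, where 48.9% of all tested genes did. Without CD4-negative replicate 3 there were 44 of 48 (52.2% of all genes), and without CD4-positive replicate 2 there were 26 (48.2%). With CD4-positive replicate 1 and CD4-negative replicate 3 both left out, which was chosen after seeing the data, 26 of 48 were above 0 (50.8% of all genes), with a median log2 fold change of 0.022 and 0 members at an unadjusted p under 0.05. The replicate 3 libraries follow another naming scheme. Within the other scheme, with replicates 1 and 2 alone, 41 of 48 were above 0 (50.8% of all genes), and 0 passed at an unadjusted p under 0.05. That set was also chosen after seeing the data. Between the 2 replicate 3 libraries 8 of 48 members were higher in the CD4-positive library, where 51.4% of all genes were, and this pair gives no test.

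**Figure D5:**
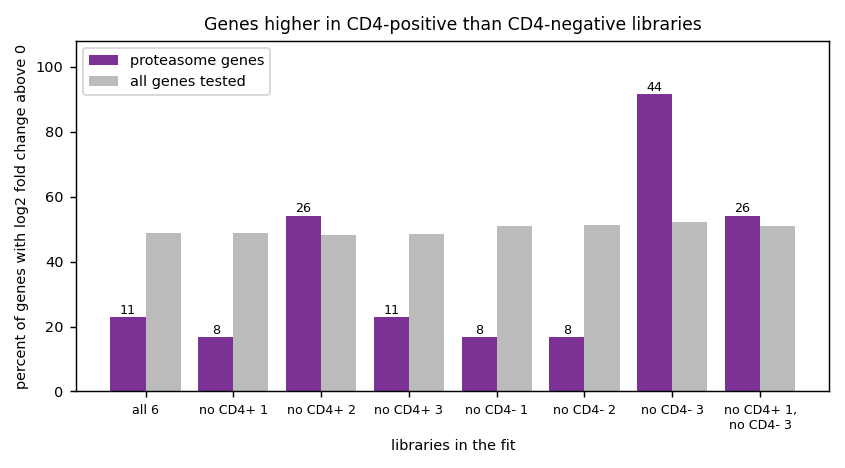
Percent of genes with a log2 fold change above 0, CD4-positive over CD4-negative (y axis, from 0), for proteasome genes (purple, with the count of 48) and all tested genes (grey), by the libraries in the edgeR fit. The purple bar is at 11 of 48 with all libraries and at 44 of 48 without CD4-negative replicate 3, while the grey bars stay near 50.

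No gene of the lists for the same pathway was called either. Of 15 tested genes for other proteasome subunits, assembly and bound factors, 9 for control of proteasome genes, 6 for ubiquitin and its activation, 12 for peptide loading and 11 for the interferon gamma response, 0 passed in either direction by edgeR, and 0 had an unadjusted p under 0.05. Over all tested genes 0.212% passed and 4.44% had such a p, so counts of 0 in lists of this size are close to the background. Their median log2 fold changes were 0.00077, 0.017, -0.011, 0.085 and 0.015. Nfe2l1, which encodes the transcription factor that restores proteasome genes when proteasomes are inhibited, averaged 139 ± 17.1 CPM over CD4-positive and 137 ± 9.02 CPM over CD4-negative libraries. Ddi2, the protease that activates it, was at 69.7 ± 10.8 CPM for CD4-positive and 55.0 ± 18.2 CPM for CD4-negative cells (log2 0.34, SE 0.27, and 0.093 without CD4-negative replicate 3), and Mafg, a partner of Nrf factors, at 16.7 ± 2.49 CPM for CD4-positive and 14.1 ± 1.40 CPM for CD4-negative cells.

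Tap1 was at 156 ± 16.3 CPM for CD4-positive and 140 ± 19.1 CPM for CD4-negative cells (log2 0.16). The class I heavy chain H2-K1 was at 769 ± 14.1 CPM for CD4-positive and 675 ± 33.9 CPM for CD4-negative cells (log2 0.19, SE 0.15, edgeR unadjusted p = 0.24). H2-K1 was higher in every CD4-positive library (756 to 784 CPM) than in any CD4-negative one (653 to 714 CPM), as were 4.84% of all tested genes. Ifngr2, the signalling chain of the interferon gamma receptor, had 32, 67 and 85 counts in CD4-positive replicates 1, 2 and 3. In CD4-negative replicates 1, 2 and 3 it had 28, 6 and 0 counts. The means were 1.20 ± 0.50 CPM for CD4-positive and 0.24 ± 0.32 CPM for CD4-negative cells. Its log2 fold change was 2.31 (interval -0.32 to 4.93, unadjusted p = 0.077, edgeR adjusted p = 0.99999). Every CD4-positive library lay above every CD4-negative one, as in 4.84% of all tested genes. Among ubiquitin genes Ubb was at 614 ± 122 CPM for CD4-positive and 725 ± 258 CPM for CD4-negative cells and the activating enzyme Uba6 at 27.3 ± 7.10 CPM for CD4-positive and 22.8 ± 2.12 CPM for CD4-negative cells. The proteasome-bound deubiquitinase Usp14 was at 45.1 ± 3.46 CPM for CD4-positive and 41.1 ± 1.85 CPM for CD4-negative cells.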

How the data were processed

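The authors deposited 1 table of estimated counts per gene for 6 libraries, not normalised. The build mm10 and the tools STAR, Picard and RSEM appear in the submitters' processing notes, with no version or role. Neither the annotation nor the strand setting used for counting is stated in the sources used here. Libraries were stranded mRNA preparations (TruSeq) read as pairs, per the labels' protocols. Columns were matched to samples by library name.

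Estimated counts were rounded. edgeR 4.0.16 in R 4.3.3 was used with filterByExpr (12760 genes kept), TMM scaling, robust dispersions (common dispersion 0.0994) and its quasi-likelihood F test (robust, 2-sided, no covariate), with Benjamini-Hochberg adjustment over all tested genes at 0.05. SEs come from the F statistic and 95% intervals from the t quantile of the fit. Levels are TMM-scaled CPM. Exon (union), principal-transcript and coding lengths, coordinates and strands come from GENCODE M21 (GRCm38, the assembly of mm10). DESeq2 1.42.0 and limma 3.58.1 (voom) were alternatives. The tests were first tested on simulated counts.

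The labels do not tie replicates to separate animals. By their Y-linked transcripts the replicate 1 libraries drew on male animals that the other libraries did not. Whether replicates 2 and 3 came from separate animals is not given. The part of sex in the values was not tested. The p-values thus rest on the spread among these 6 libraries, part of which may be technical. Libraries of a group differed by more than sampling noise (chi-square per degree of freedom 60.0 to 431). The upper limit given for 0 counts covers counting error only. Members, lists and tests were chosen with earlier results of these data known. Given in full were the 6 exchangeable subunits, Psmb11, Psme1, Psme2, the member of each role with the smallest p, and, in each pathway list, the 2 genes with the smallest p (some are not reported here); other members were named after their values were seen.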

Additional observations from a re-analysis of the deposited data

How the results depend on the processing

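No proteasome gene passed an adjusted p of 0.05 under any of the alternatives run (RLE and upper-quartile scaling, DESeq2, limma-voom, no filter, at least 5 CPM, a replicate block, the naming scheme as a term, each library left out, and 2 sets of libraries chosen after seeing the data). The group difference in the immunoproteasome to standard ratio kept its direction with each length and with the geometric mean, versions that reuse the same counts. It also did with each set of libraries left out. That outcome was fixed in advance, because every CD4-positive library lay above every CD4-negative one in the ratio of sums. Of the same-numbered libraries replicates 2 deviated together (r 0.58) and replicates 1 and 3 did not (-0.17 and 0.017). Between libraries of different number r ran from -0.56 to 0.41, the highest for CD4-positive replicate 1 with CD4-negative replicate 3. Both replicate 1 libraries share Y-linked transcripts and both replicate 3 libraries a naming scheme, but the labels do not say what a number marks, so no pairing was assumed. With the replicate block 0 genes of the whole table passed (Cd4 at an adjusted p of 0.11), and 9 of 48 members were above 0. Over all genes 27 passed, against 162 by DESeq2, 67 without a filter, 11 with the naming scheme, 9 with replicates 1 and 2 alone, 66 without both CD4-positive replicate 1 and CD4-negative replicate 3, and 0 to 44 with a library left out (44 without CD4-negative replicate 3). The members above 0 were 41 with replicates 1 and 2 alone, 26 without those 2 libraries, and 8 to 44 with a library left out.

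Signs of single genes turned with replicates 1 and 2 alone for Psma6 (0.26), Psmb10 (0.15), Psmb5 (0.062), Psmb6 (0.21), Psmb7 (0.32), Psmb8 (0.33), Psmc4 (0.016), Psmd13 (0.19), Psmd9 (0.15), Psme1 (0.15), Psme2 (0.20) and Psmf1 (0.050). Without both CD4-positive replicate 1 and CD4-negative replicate 3 they turned for Psma6 (0.021), Psmb10 (0.028), Psmb7 (0.13) and Psmb8 (0.17). With a library left out in turn the log2 fold changes ran from -0.37 to 0.20 for Psma6, -0.20 to 0.18 for Psmb10, -0.28 to 0.10 for Psmb5, -0.38 to 0.18 for Psmb6, -0.29 to 0.31 for Psmb7, -0.30 to 0.33 for Psmb8, -0.083 to 0.27 for Psmb9, -0.36 to 0.048 for Psmc3ip, -0.50 to 0.19 for Psmd13, -0.54 to 0.012 for Psmd9, -0.25 to 0.093 for Psme1, -0.31 to 0.16 for Psme2 and -0.065 to 0.030 for Psmf1. Without a change of sign they ran from -0.31 to -0.026 for Psmc4, -0.21 to -0.052 for Psmb3, 0.046 to 0.27 for Psmg2, 0.093 to 0.50 for Ddi2, 0.14 to 0.47 for Uba6 and -0.50 to -0.0099 for Ubb. The causes of these changes were not tested. With 3 libraries per group the median SE of a member's log2 fold change was 0.21, which limits what could be detected.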
